A study of Mus musculus with 8 samples.

Results

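Immediate early genes are switched on within minutes of a signal, without new protein synthesis, and their RNAs are short-lived. The 10 described here were taken by name from a list of such genes and of their feedback regulators, and each name matched 1 of the 37620 gene IDs in the count files. They are Fos and Fosb, Jun and Junb, the further transcriptional regulators Egr1, Ier2 and Atf3, and the feedback regulators Dusp1, Zfp36 and Nab2. All 10 passed the filter on low counts, which left 15355 genes for testing, but Nab2 held at most 7 counts in any library other than the vector libraries.

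RNA came from erythroid progenitors, which mature into red blood cells, sorted from livers of C57BL/6 mouse embryos at E14.5, transduced, and kept for 24 h with erythropoietin, the hormone that drives their maturation. The 8 libraries formed 6 groups. Bloodlinc hairpins 1 and 2 target a long noncoding RNA and had a Bloodlinc control hairpin library. The hnRNPU hairpins 1 and 2 target Hnrnpu, the gene of a nuclear RNA-binding protein, and had an hnRNPU control hairpin library. A Bloodlinc vector library, made to overexpress that RNA, was set against an empty vector library. Each hairpin, vector and control was a single library, and the labels say neither what the control hairpins target nor whether each library had a culture or animal of its own. The p-values therefore speak only of these samples. They rest on the spread between the hairpins of each target, drawn almost wholly to a trend over all genes. The single controls add nothing to it.

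A growth factor, cytokine or stress signal reaches these genes through the ERK, p38 and JNK kinases. They act on serum response factor with its ternary complex partners, which bind the CArG box, and on CREB-type factors, which bind the cyclic AMP response element. FOS and JUN proteins pair as the AP-1 factor. EGR1 is a zinc finger activator that the corepressor NAB2 holds back, the phosphatase DUSP1 switches off the p38 and JNK kinases, and the RNA-binding protein tristetraprolin, product of Zfp36, speeds decay of RNAs with AU-rich elements. In red cell precursors, erythropoietin is known to induce several of these genes.

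Counts in genes ranged from 23682993 to 34540691 in 6 libraries, but came to 2931627 and 2612916 with hnRNPU hairpins 1 and 2, where counts outside genes made up 89.7% and 86.6% of those placed uniquely, against a share of 21.7% to 30.1% elsewhere. The members together took 0.0152% to 0.0256% of the counts in genes. A count of 0 allows up to 1.77 and 1.18 CPM with hnRNPU hairpins 1 and 2, and between 0.0655 and 0.154 CPM elsewhere, taking 3 counts as the floor. Levels are CPM (counts scaled to the library total) adjusted by the trimmed mean of M values (TMM CPM), and intervals and floors cover counting error only. The targeted genes were read as a check of the labels: Bloodlinc RNA stood at 2.19 and 1.75 CPM with its hairpins and 4.46 CPM with their control, and at 5.46 CPM with its vector and 1.26 CPM with the empty vector. Hnrnpu stood at 325 and 373 CPM with its hairpins, against 588 CPM with their control. Where it was not targeted, Hnrnpu was lower still at 294 and 214 CPM with Bloodlinc hairpins 1 and 2 and 290 CPM with their control. It was higher, at 678 and 674 CPM, with the Bloodlinc vector and the empty vector. Neither knockdown passed edgeR's test for its own target (adjusted p = 1 for Bloodlinc and 0.730 for Hnrnpu). The erythroid marker list, of which 11 of 12 genes matched, summed to between 23600 and 106300 CPM, with no marker at 0 counts in any library.

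Per kilobase of exon, the median level over the 8 libraries was highest for Junb, at 11.6 CPM per kilobase, followed by Dusp1 (9.24), Jun (7.55), Ier2 (7.54), Atf3 (6.20), Zfp36 (5.36), Fos (3.34), Egr1 (1.54), Fosb (0.225) and Nab2 (0.0982). The ranges over the libraries were wide: Junb spanned 8.82 to 27.3 CPM per kilobase, Fos 0.758 to 14.2, and Fosb 0.108 to 3.63. For no pair of neighbours in this order were the ranges apart. Over the 6 libraries other than those of the hnRNPU hairpins, the SD of log2 CPM had a median of 0.919 for the members, against 0.671 for all genes tested.

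**Figure D1:**
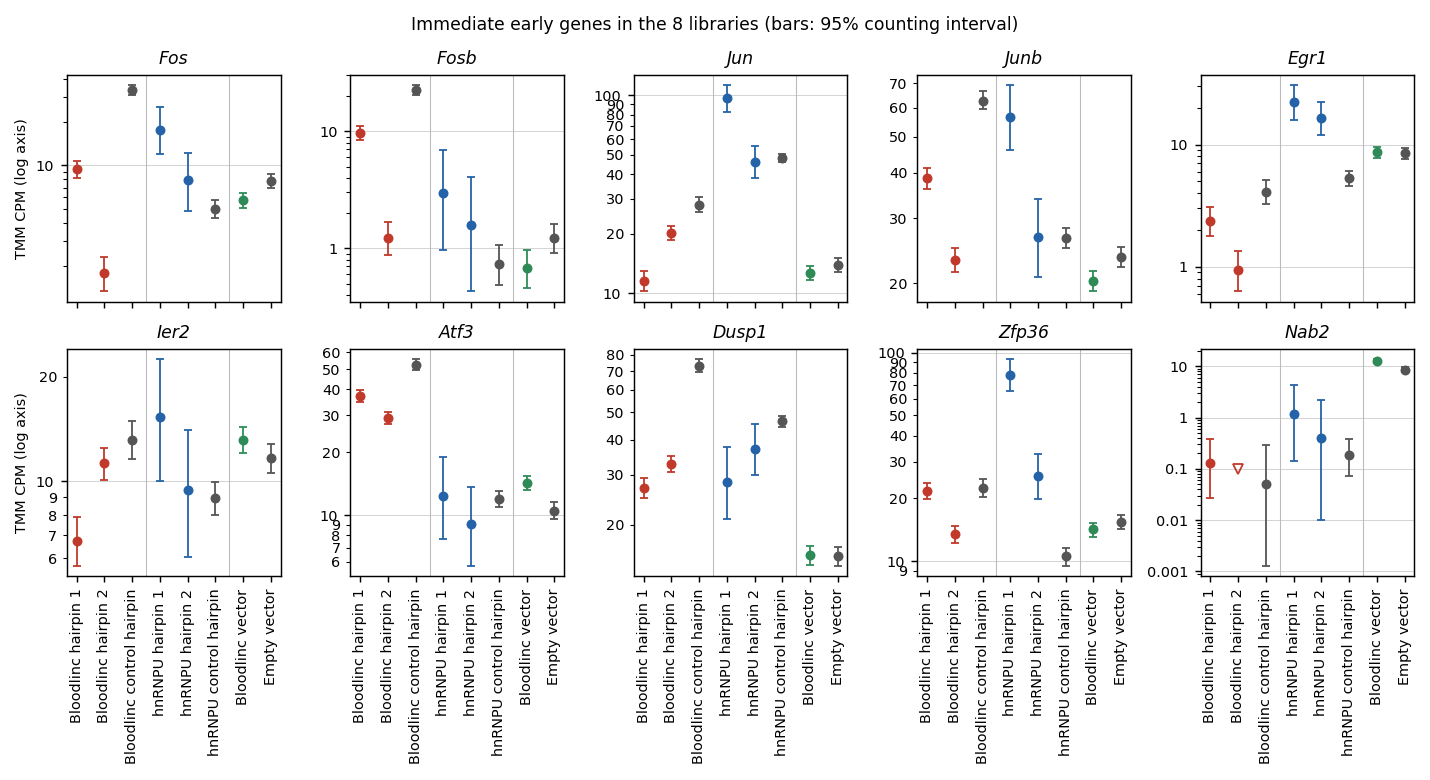
TMM CPM (log axis) of each immediate early gene in the 8 libraries, with 95% counting intervals as bars and, for Nab2, an open triangle at the floor where no count was seen. Fos was lowest with Bloodlinc hairpin 2 (1.78 CPM) and highest in the Bloodlinc control hairpin library (33.5 CPM), and Nab2 reached 12.7 and 8.52 CPM in the vector libraries alone.

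Promoters show which of the binding sequences just named lie next to the members. The 250 bases before the annotated start are printed for Fos and Zfp36, each called in a comparison below, and for Fosb and Dusp1, which come next after Fos by p in the Bloodlinc knockdown, from RefSeq on GRCm38.p6 and read 5′ to 3′ on the gene's own strand. Capitals mark motif matches: the cyclic AMP response element core TGACGT, the EGR site GCGNGGGCG and the CArG box, each searched on both strands, and the TATA box TATAAA, searched on the gene's strand.
Fos (chr12:85473640-85473889, plus strand): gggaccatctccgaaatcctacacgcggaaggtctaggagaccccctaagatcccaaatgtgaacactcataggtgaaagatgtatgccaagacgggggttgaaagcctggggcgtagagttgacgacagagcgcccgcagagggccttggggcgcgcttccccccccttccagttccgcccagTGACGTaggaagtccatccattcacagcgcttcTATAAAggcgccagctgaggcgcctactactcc
Fosb (chr7:19310046-19310295, minus strand): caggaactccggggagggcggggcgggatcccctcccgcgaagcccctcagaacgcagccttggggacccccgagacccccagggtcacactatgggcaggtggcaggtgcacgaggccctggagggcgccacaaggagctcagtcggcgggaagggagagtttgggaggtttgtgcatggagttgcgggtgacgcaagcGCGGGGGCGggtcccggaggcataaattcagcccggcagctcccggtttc
Dusp1 (chr17:26508473-26508722, minus strand): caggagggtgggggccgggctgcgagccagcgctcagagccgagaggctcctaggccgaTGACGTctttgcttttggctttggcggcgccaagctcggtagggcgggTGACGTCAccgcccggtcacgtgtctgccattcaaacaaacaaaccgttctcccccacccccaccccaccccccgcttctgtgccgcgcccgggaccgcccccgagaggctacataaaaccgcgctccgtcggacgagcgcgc
Zfp36 (chr7:28379229-28379478, minus strand): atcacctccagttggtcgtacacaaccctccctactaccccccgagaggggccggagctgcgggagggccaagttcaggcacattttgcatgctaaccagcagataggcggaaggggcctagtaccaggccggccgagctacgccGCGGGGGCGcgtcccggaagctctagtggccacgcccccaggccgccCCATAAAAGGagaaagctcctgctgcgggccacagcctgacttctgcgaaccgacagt

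RefSeq promoters were at hand for 8 members, Ier2 and Egr1 being the others. The response element core lay in 3 of the 8, in Fos from base −66 to −61, in Atf3 from −8 to −3 and in Dusp1 at 3 places, of which the pair at −143 to −138 and −141 to −136 overlap as a palindrome. It lay in 6.47% of 32851 promoters of the same length. The EGR site lay in Fosb from −50 to −42 and in Zfp36 from −105 to −97, thus in 2 of 8, against 4.70% of all promoters. The CArG box lay in Zfp36 alone, from −58 to −49 (1.47% of all), and the TATA box in Fos alone, from −33 to −28 (7.59% of all). The AP-1 site TGANTCA lay in 0 of the 8 windows and in 6.75% of all promoters. Only these 250 bases were searched, so a CArG box or other site farther from the start, or any in Ier2 and Egr1, would be missed. A match is a description of letters and says nothing of binding in these cells.

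**Figure D2:**
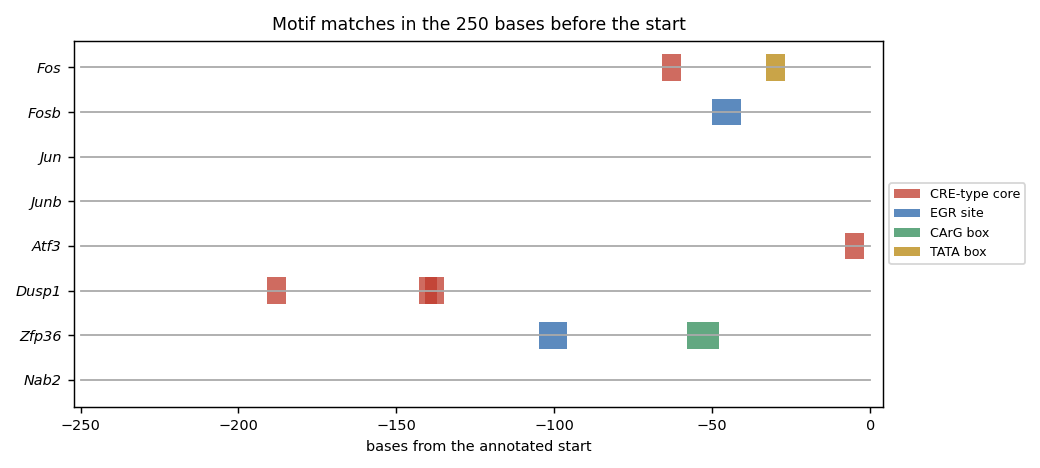
Motif matches (coloured boxes) along the 250 bases before the annotated start of the 8 members with a RefSeq promoter, in bases from the start. The response element core lies in Fos, Atf3 and Dusp1, the EGR site in Fosb and Zfp36, and Jun, Junb and Nab2 hold no match.

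The AU-rich element that tristetraprolin recognises was also searched in the 3′ untranslated regions of GENCODE M21 transcripts. Its core TATTTAT lay in 7 of the 10 members, against 3832 of 12769 genes tested with such a region. The shorter ATTTA came at a median of 3.56 per kilobase in the members and 1.22 per kilobase over those genes, and the members' regions were shorter, with a median of 794 bases against 1383. Dusp1 had the densest at 5.80 per kilobase and Ier2 had 0. The stretches with the closest repeats in Fos and in Zfp36 itself are shown, with ATTTA in capitals.
Fos: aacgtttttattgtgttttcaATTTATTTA
Zfp36: tgggccctttATTTAtgacgactttATTTA

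The Bloodlinc knockdown asks which genes differ when this RNA is targeted. Fos fell, and the other members with enough counts all lay lower too without passing the test. Of the 10 members, 1 was called lower and 0 higher by edgeR's quasi-likelihood test at an adjusted p under 0.05, against 0.0261% of all genes called lower and 0.0977% called higher. Both hairpins lay below the control for 9 of the 10 members, which was the case for 30.7% of all genes. The median log2 fold change of the 9 members other than Nab2 was −1.03 (−0.921 with Nab2), against 0.0552 over all genes tested. Against the hnRNPU control hairpin library instead of their own, 6 of these 9 members turned positive, namely Fos, Fosb, Junb, Ier2, Atf3 and Zfp36.

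Fos (ENSMUSG00000021250), the FOS subunit of AP-1, stood at 9.42 and 1.78 CPM with Bloodlinc hairpins 1 and 2, on 215 and 55 counts, against 33.5 CPM on 653 counts in the control hairpin library. Both hairpin libraries lay well below the control, and hairpin 2 lay far below hairpin 1. The hairpin mean was 5.60 ± 5.40 CPM (SD, n = 2). The log2 fold change was −2.58 (SE 0.62, edgeR adjusted p = 0.0358), with single differences of −1.82 and −4.17. Without Bloodlinc hairpin 1 the log2 fold change was −4.20, and without Bloodlinc hairpin 2 it was −1.83. Without hnRNPU hairpin 1 or 2 it was −2.56 or −2.59. Fos was no longer called without Bloodlinc hairpin 2 or without either hnRNPU hairpin. Against the hnRNPU control hairpin library, where Fos stood at 4.98 CPM, the log2 fold change was 0.16. In bulk RNA, less Fos RNA per cell and fewer cells that hold it cannot be told apart.

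Fosb (ENSMUSG00000003545), the close relative of Fos, gave 9.73 and 1.23 CPM under hairpins 1 and 2, against 22.7 CPM under the control hairpin. The order of the libraries was that of Fos, with hairpin 2 lowest. A log2 fold change of −2.05 (SE 0.72) missed the threshold (edgeR adjusted p = 0.608), while leaving out hairpin 1 gave −4.17 (adjusted p = 0.00663) and leaving out hairpin 2 gave −1.22 (adjusted p = 1). These fits set 1 library against 1, with the spread taken from the hnRNPU pair.

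Jun (ENSMUSG00000052684) gave 11.6 and 20.2 CPM under hairpins 1 and 2, against 28.0 CPM under the control hairpin. Here hairpin 1 gave the lower value, the reverse of Fos and Fosb. Junb (ENSMUSG00000052837), a JUN protein that often restrains the activity of c-Jun, stood at 38.6 and 23.1 CPM, against 62.8 CPM. The log2 fold changes of −0.82 (SE 0.53) for Jun and −1.03 (SE 0.53) for Junb did not pass (edgeR adjusted p = 1 for each). Junb shares 173 exon bases on the opposite strand with Prdx2, an abundant peroxiredoxin gene which gave 1496 and 1696 CPM under the hairpins and 2616 CPM under the control hairpin. The strand setting of the counting is not given in the sources used here, so reads of Prdx2 and Junb over those bases cannot be told apart. Jun overlaps its antisense gene Junos over 232 bases in the same way.

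Egr1 (ENSMUSG00000038418) gave 2.37 and 0.940 CPM under hairpins 1 and 2, against 4.10 CPM under the control hairpin, on 54, 29 and 80 counts. Its log2 fold change was −1.32 (SE 0.69, edgeR adjusted p = 1). Ier2 (ENSMUSG00000053560), a short growth-factor-induced nuclear protein gene, stood at 6.75 and 11.3 CPM, against 13.2 CPM. Atf3 (ENSMUSG00000026628), a stress-induced leucine zipper factor, stood at 37.3 and 29.2 CPM, against 52.4 CPM. Their log2 fold changes of −0.55 (SE 0.63) and −0.66 (SE 0.55) were about as large as their errors.

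Among the feedback regulators, Dusp1 (ENSMUSG00000024190) gave 27.0 and 32.8 CPM under hairpins 1 and 2, against 73.2 CPM under the control hairpin. The hairpins lay close together, at 29.9 ± 4.13 CPM (SD, n = 2), and both far below the control. A log2 fold change of −1.29 (SE 0.52) missed the threshold over all genes (edgeR adjusted p = 0.894). Zfp36 (ENSMUSG00000044786) stood at 21.8 and 13.5 CPM, against 22.4 CPM, so that hairpin 1 was level with the control (−0.35 on the log2 scale, SE 0.56). Nab2 (ENSMUSG00000025402) had 3 and 0 counts with the hairpins and 1 in the control, all at or under the floor.

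Markers of cell types moved with this comparison. All 11 erythroid markers lay lower with the Bloodlinc hairpins, 0 of them called, and their sum was 48300 and 41290 CPM against 84040 CPM in the control. Of 10 neutrophil markers, 8 lay lower and 0 were called, with sums of 42.2 and 54.2 CPM against 102 CPM and no marker at 0 counts. Of 9 macrophage markers tested, 4 lay higher and 5 lower, with sums of 3.59 and 24.7 CPM against 4.15 CPM. The complement genes C1qa, C1qb and C1qc were at 0 counts with hairpin 1, C1qa with hairpin 2 and C1qc in the control. Cd163 was also at 0 counts with hairpin 1 and in the control, as were Marco and Vcam1 with hairpin 2. The part of these markers in the members' differences was not tested.

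**Figure D3:**
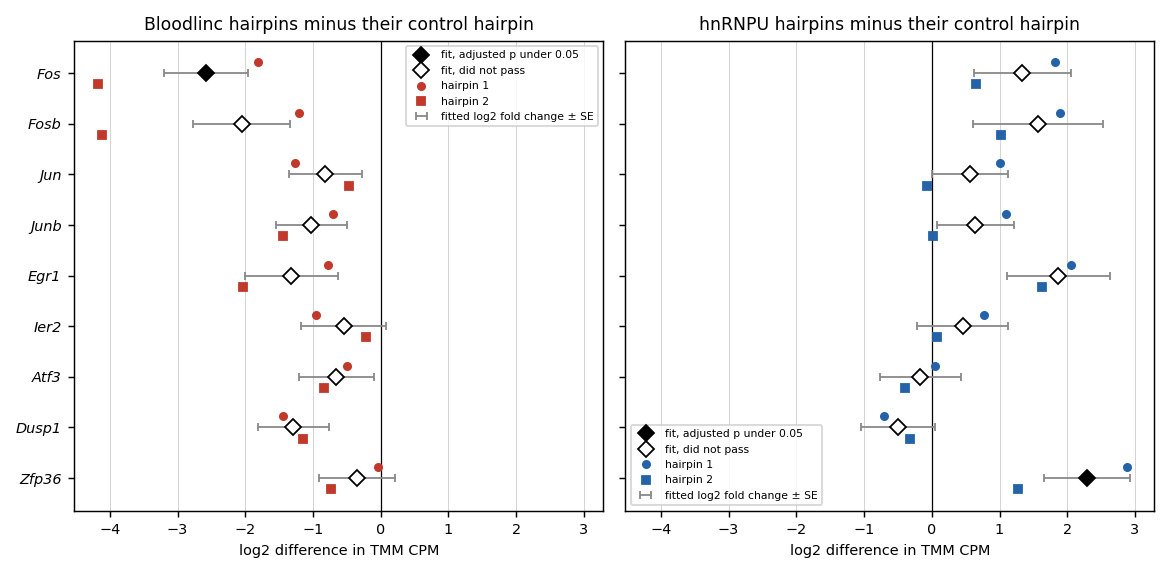
Log2 differences of the members from their own control hairpin library: fitted log2 fold change with its SE (diamonds, filled where the adjusted p was under 0.05) and the single hairpins (circles and squares). In the left panel Fos lies at −2.58 and every other diamond is also below 0; in the right panel Zfp36 lies at 2.29 and only Atf3 and Dusp1 lie below 0. Nab2 is left out for its low counts.

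The hnRNPU knockdown asks the same for the RNA-binding protein, and here most members lay higher, with Zfp36 the 1 member called. Of the 10 members, 1 was called higher and 0 lower by edgeR, against 0.580% of all genes called higher and 0.300% called lower. Over all genes, 89 were called higher and 46 lower, or 126 and 38 with DESeq2's size factors. Both hairpins lay above the control for 7 of the 10 members, which was the case for 28.6% of all genes. Among these, Nab2 rested on 2 and 1 counts with the hairpins. For Junb and Ier2 hairpin 2 was level with the control (log2 differences 0.014 and 0.079). The median log2 fold change was 0.64 for the 9 members other than Nab2 (0.990 with Nab2) and −0.0943 for all genes. With DESeq2's size factors the median of all genes was 0.0300, so relative to all genes the 9 members lay 0.738 and 0.776 higher under the main scaling and that one. Against the Bloodlinc control hairpin library instead of their own, Fos, Fosb, Junb and Ier2 turned negative.

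Zfp36 stood at 78.6 and 25.6 CPM with hnRNPU hairpins 1 and 2, on 133 and 65 counts, against 10.5 CPM on 402 counts in the control hairpin library. The hnRNPU control had the lowest Zfp36 level of all 8 libraries, and hairpin 1 the highest. The hairpin mean was 52.1 ± 37.5 CPM (SD, n = 2). The log2 fold change was 2.29 (SE 0.64, edgeR adjusted p = 0.0459), with single differences of 2.89 and 1.27. It was 1.27 without hairpin 1 (adjusted p = 1), 2.89 without hairpin 2 (adjusted p = 0.0804), and 2.26 and 2.31 without Bloodlinc hairpin 1 or 2 (adjusted p = 0.115 and 0.0655), by edgeR. Against the Bloodlinc control hairpin library, where Zfp36 stood at 22.4 CPM, it was 1.20 (adjusted p = 0.178). Zfp36 overlaps an antisense gene, Gm44710, over 125 exon bases.

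Fos stood at 17.7 and 7.88 CPM with hnRNPU hairpins 1 and 2, on only 30 and 20 counts, against 4.98 CPM on 190 counts in the control. Both hairpins lay above the control, hairpin 1 by more. A log2 fold change of 1.34 (SE 0.71) missed the threshold (edgeR adjusted p = 0.542). Fosb stood at 2.96 and 1.58 CPM on 5 and 4 counts, against 0.735 CPM on 28 counts, a log2 fold change of 1.57 (SE 0.95) that the counts can hardly resolve.

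Jun stood at 96.9 and 46.1 CPM with hnRNPU hairpins 1 and 2, against 48.4 CPM in the control. Hairpin 1 was higher and hairpin 2 was level. Junb showed the same split, at 56.7 and 26.8 CPM against 26.5 CPM. Egr1 differed from both in that the hairpins stood close together at 22.5 and 16.6 CPM, on 38 and 42 counts, against 5.33 CPM on 203 counts. The value of 1.87 (SE 0.76) on the log2 scale missed the threshold (edgeR adjusted p = 0.337). Both hairpins also stood above the Bloodlinc control hairpin library, where Egr1 was at 4.10 CPM.

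Ier2 stood at 15.4 and 9.45 CPM, against 8.95 CPM, and Atf3 at 12.4 and 9.06 CPM, against 11.96 CPM. Neither stood clear of its control. Dusp1 was the member with both hnRNPU hairpins below the control, at 28.4 and 37.0 CPM against 46.5 CPM (−0.50 on the log2 scale, SE 0.54, edgeR adjusted p = 0.822). Nab2 had 2 and 1 counts with the hairpins and 7 in the control. The ratio of hairpins to control was 3.86, with a 95% exact conditional binomial interval of 0.645 to 16.9.

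Other cell markers lay higher in the same libraries. All 10 neutrophil markers lay higher with the hnRNPU hairpins and 2 were called, with sums of 9366 and 3485 CPM against 1634 CPM in the control and no marker at 0 counts. Of 9 macrophage markers tested, 6 lay higher and 2 lower with 0 called, and their sums were 75.7 and 31.1 CPM against 21.4 CPM. C1qa was at 0 counts in all of these libraries, C1qc and Cd163 with either hairpin, and C1qb, Marco and Mrc1 with hairpin 1. The erythroid sum was 106300 and 57160 CPM against 64440 CPM. The interferon-induced genes Ifit1 and Isg15, chosen after their values were seen, stood at 492 and 187 CPM with hairpin 1, at 11.8 and 4.33 CPM with hairpin 2, and at 0.971 and 3.23 CPM in the control. Hairpin 1, which gave the highest level of the 8 libraries for Jun, Egr1, Ier2 and Zfp36, was the highest library for 22.5% of all genes. The part of these markers and of the counts outside genes in the members' differences was not tested.

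The knockdowns share no library, so their effects could be set against each other in a contrast. Each effect is taken from a single control library, so the gap between the control libraries is part of every difference. The hnRNPU control minus the Bloodlinc control was −2.73 for Fos and −4.80 for Fosb on the log2 scale. Of the 10 members, 7 lay lower in the hnRNPU control and 3 higher. For Fosb the hairpin means were 5.48 CPM with the Bloodlinc hairpins and 2.265 CPM with the hnRNPU hairpins. The Bloodlinc effect minus the hnRNPU effect was negative for the 9 members other than Nab2, with a median of −1.67 (−1.73 with Nab2, also negative) and 0.297 for all genes. Fos was the 1 member called lower, with 0 called higher, against 0.306% and 0.0195% of all genes. Its difference was −3.92 on the log2 scale (SE 0.98, edgeR adjusted p = 0.0274). It was −5.50 without Bloodlinc hairpin 1, −3.17 without Bloodlinc hairpin 2, −3.21 without hnRNPU hairpin 1 and −4.41 without hnRNPU hairpin 2. In all but the first of these fits Fos was no longer called. For Zfp36 the difference was −2.64 (SE 0.82, adjusted p = 0.210), for Egr1 −3.19 (SE 1.02, adjusted p = 0.234) and for Fosb −3.62 (SE 1.22, adjusted p = 0.307), none of which passed in edgeR. The Fosb difference was −5.71 without Bloodlinc hairpin 1 (adjusted p = 0.0148) and −2.79 without Bloodlinc hairpin 2 (adjusted p = 0.845), each with 1 library left in that arm. The neutrophil list moved alongside, with all 10 markers lower in this contrast and 3 called.

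Overexpression of Bloodlinc left the members close to the empty vector, with 1 library in each arm and thus no replicate check. None of the 10 differed by more than 2-fold, a mark that 0.371% of all genes passed upwards and 1.38% downwards. The median log2 difference was −0.0481 for the members and 0.00540 for all genes. Fos stood at 5.77 CPM with the Bloodlinc vector and 7.81 CPM with the empty vector, a log2 difference of −0.43 with a 95% exact conditional binomial interval of −0.679 to −0.199. Fosb stood at 0.677 and 1.23 CPM on 31 and 51 counts (−0.80, interval −1.56 to −0.194). Jun stood at 12.7 CPM with the Bloodlinc vector and 13.9 CPM with the empty vector, Junb at 20.3 and 23.6 CPM, Egr1 at 8.67 and 8.52 CPM, Ier2 at 13.2 and 11.7 CPM, Dusp1 at 15.6 and 15.4 CPM, and Zfp36 at 14.2 and 15.3 CPM. These 6 lay within 0.22 log2 units of the empty vector. Atf3 stood at 14.3 CPM with the Bloodlinc vector, against 10.5 CPM (log2 difference 0.44, interval 0.266 to 0.621).

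Nab2 and Dusp1 set both vector libraries apart from all 6 hairpin libraries, Nab2 by higher levels and Dusp1 by lower ones. For Dusp1 these were 15.6 CPM with the Bloodlinc vector and 15.4 CPM with the empty vector, against 27.0 to 73.2 CPM in the hairpin libraries. Nab2 stood at 12.7 CPM with the Bloodlinc vector and 8.52 CPM with the empty vector, on 583 and 352 counts (log2 difference 0.58, interval 0.387 to 0.775). The 6 hairpin libraries held between 0 and 7 counts each. The empty vector exceeded the Bloodlinc control hairpin by a log2 ratio of 7.38 on 352 counts against 1 (95% exact conditional binomial interval 4.89 to 12.7). It exceeded the hnRNPU control hairpin by 5.54 on 352 counts against 7 (4.48 to 6.86). Nab2 overlaps the antisense gene Gm16229 over 1050 exon bases, Nemp1 over 151 and Stat6 over 40, all on the opposite strand. The 8 hepatocyte markers summed to 11.1 CPM with the Bloodlinc vector and 12.7 CPM with the empty vector, against at most 2.96 CPM in any hairpin library. None of them was at 0 counts in the vector libraries, and between 1 and 5 were in each hairpin library. The erythroid sums were 25860 CPM with the Bloodlinc vector and 23600 CPM with the empty vector. They lay below the range of the hairpin libraries, 41290 to 106300 CPM. Of 11 erythroid markers tested, 8 lay more than 2-fold lower in the empty vector than in the Bloodlinc control and 0 higher. Against the hnRNPU control, 7 lay more than 2-fold lower and 0 higher. The macrophage sums of 18.1 CPM with the Bloodlinc vector and 24.5 CPM with the empty vector lay within the range of the hairpin libraries, 3.59 to 75.7 CPM, as did the neutrophil sums of 959 and 996 CPM, within 42.2 to 9366 CPM. Mrc1 was picked singly from the macrophage list, outside the rule for named genes given below. It stood at 5.66 CPM with the Bloodlinc vector and 8.57 CPM with the empty vector. These rest on 259 and 354 counts, against 0 to 5 counts in the hairpin libraries. Of 9 macrophage markers tested, 9 lay more than 2-fold higher in the empty vector than in the Bloodlinc control. Against the hnRNPU control, 5 lay more than 2-fold higher and 1 lower. The part of any of these cells in the Nab2 and Dusp1 levels was not tested.

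The 3 control libraries lay far apart for these genes, which bears on every difference given above. The log2 range over the controls had a median of 2.02 for the members, against 1.23 for all genes. The Bloodlinc control hairpin library held the highest level of the 3 controls for 7 members, which was the case for 35.5% of all genes. Over all 8 libraries it was highest for 5 members, namely Fos, Fosb, Junb, Atf3 and Dusp1, and for 12.7% of all genes.

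In the hnRNPU control hairpin library set against the Bloodlinc control hairpin library, 1 member lay more than 2-fold higher and 5 more than 2-fold lower, against 21.9% and 10.9% of all genes. The 5 were Fosb, at 0.735 CPM in the hnRNPU control against 22.7 CPM in the Bloodlinc control (log2 difference −4.80), Fos (−2.73), Atf3 (−2.12), Junb (−1.24) and Zfp36 (−1.08). The member that lay higher was Nab2, on 7 counts against 1, with an interval of the log2 ratio from −1.12 to 7.34 that spans 0. Its log2 difference of 1.01 fell under the 2-fold mark with a prior count of 5 (0.62), with DESeq2's size factors (0.978) or without the filter (0.995), which leaves 0 members higher. Jun went the other way within 2-fold, at 48.4 CPM against 28.0 CPM. Atf3 stood at 11.96 CPM in the hnRNPU control against 52.4 CPM in the Bloodlinc control, and Dusp1 at 46.5 CPM against 73.2 CPM.

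In the empty vector library set against the Bloodlinc control, 2 members lay more than 2-fold higher (Egr1 and Nab2) and 6 more than 2-fold lower, against 31.7% and 19.0% of all genes. Dusp1 stood at 15.4 CPM in the empty vector library, against 73.2 CPM in the Bloodlinc control (log2 difference −2.24). In the empty vector library set against the hnRNPU control, Nab2 lay more than 2-fold higher and Jun and Dusp1 more than 2-fold lower, thus 1 and 2 members, against 14.7% and 11.4% of all genes. Jun stood at 13.9 CPM in the empty vector library, against 48.4 CPM in the hnRNPU control (−1.79). These comparisons share control libraries, and each rests on 1 library per arm.

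**Figure D4:**
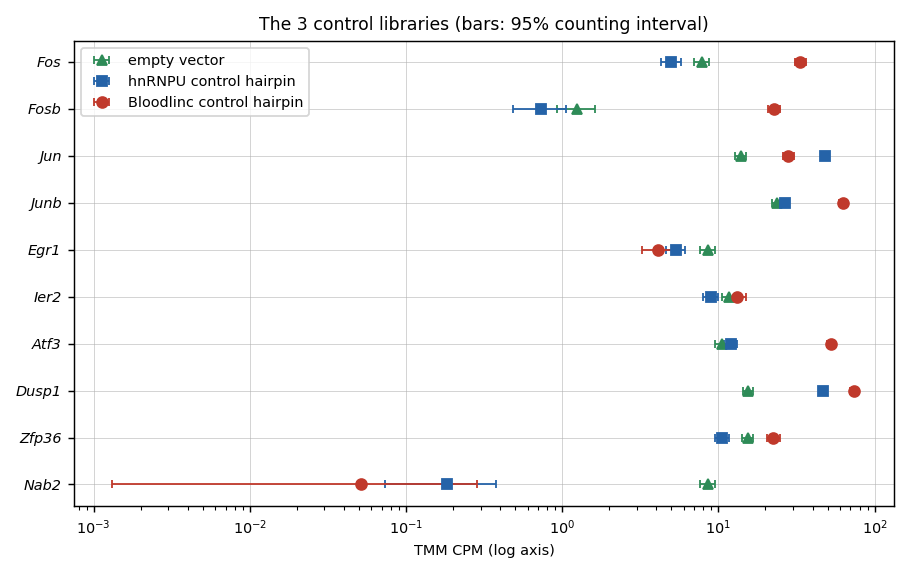
TMM CPM (log axis) of the members in the empty vector, hnRNPU control hairpin and Bloodlinc control hairpin libraries, with 95% counting intervals as bars. Fosb stands at 1.23 CPM with the empty vector and 0.735 CPM in the hnRNPU control, against 22.7 CPM in the Bloodlinc control, while Nab2 stands at 8.52 CPM with the empty vector and under 0.2 CPM with the control hairpins.

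The rest of the pathway gave 0 calls in either knockdown. Among 9 tested genes that encode other AP-1 and small Maf subunits, 5 lay higher and 4 lower in the Bloodlinc knockdown (median log2 fold change 0.0816) and 8 lay higher in the hnRNPU knockdown (median 0.676). Mafk, a small Maf partner of NF-E2, stood at 159 and 121 CPM with the Bloodlinc hairpins against 300.4 CPM (−1.10 on the log2 scale), and Jund at 52.8 and 67.0 CPM against 95.7 CPM (−0.68). Fosl2 stood at 23.0 and 8.27 CPM with the hnRNPU hairpins against 4.46 CPM (1.79).

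Of 28 other immediate early and delayed early genes, 13 lay higher and 14 lower in the Bloodlinc knockdown (median −0.130), and 19 lay higher and 9 lower in the hnRNPU knockdown (median 0.802). Nfkbia, the inhibitor of NF-kB, stood at 12.5 and 5.32 CPM with the Bloodlinc hairpins against 22.4 CPM (−1.33, edgeR adjusted p = 0.944), and Plk2 at 6.62 and 24.5 CPM against 7.84 CPM (0.99). Socs3, a feedback inhibitor of cytokine receptors, stood at 17.7 and 16.9 CPM with the hnRNPU hairpins against 61.4 CPM (−1.83, edgeR adjusted p = 0.0809). Klf6 stood at 273 and 170 CPM against 63.0 CPM (1.81, edgeR adjusted p = 0.172). The 14 other feedback regulators had medians of 0.328 in the Bloodlinc knockdown and 0.609 in the hnRNPU knockdown. Among them Nab1, the relative of Nab2, stood at 26.7 and 19.1 CPM with the Bloodlinc hairpins against 18.7 CPM (0.29), and Zfp36l2, a relative of Zfp36, at 37.96 and 19.0 CPM against 32.7 CPM (−0.20). With the hnRNPU hairpins, Zfp36l1 stood at 24.8 and 16.2 CPM against 11.3 CPM (0.85), and Spry1, an inhibitor of ERK signalling, at 69.8 and 16.9 CPM against 24.3 CPM (0.82).

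The upstream kinases were read as 2 lists. The 23 genes of the ERK cascade and serum response factor had medians of −0.0947 in the Bloodlinc knockdown and 0.00895 in the hnRNPU knockdown, and the 12 tested genes of the p38 and JNK cascades 0.290 and 0.0790. Map2k1, an ERK kinase, stood at 55.8 and 97.9 CPM with the Bloodlinc hairpins against 37.98 CPM (1.02 on the log2 scale), and Mapkapk3, a substrate of p38, at 25.6 and 57.6 CPM against 14.8 CPM (1.49, edgeR adjusted p = 0.795). Hras stood at 30.4 and 24.2 CPM with the Bloodlinc hairpins against 45.5 CPM (−0.74), and at 14.8 and 25.2 CPM with the hnRNPU hairpins against 53.4 CPM (−1.40). Mapk14, the gene of p38 alpha, stood at 45.5 and 54.9 CPM with the Bloodlinc hairpins against 35.2 CPM (0.51). With the hnRNPU hairpins, Mrtfa, a cofactor of serum response factor, stood at 27.2 and 15.4 CPM against 7.16 CPM (1.56), and Map3k5 at 21.3 and 13.8 CPM against 7.95 CPM (1.13). None of these passed.

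**Figure D5:**
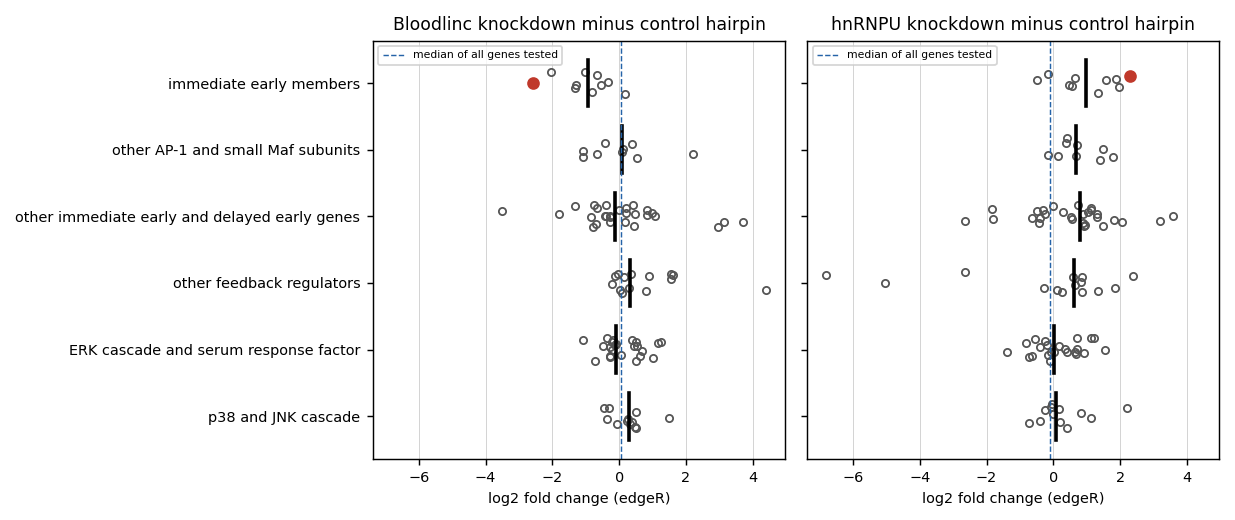
Fitted log2 fold changes of the members and of 5 other lists of the pathway in the Bloodlinc (left) and hnRNPU (right) knockdowns; each circle is a gene, filled where the adjusted p was under 0.05, black bars are list medians and the dashed line is the median of all genes tested. Fos (left) and Zfp36 (right) are the filled circles, and the kinase lists at the bottom have medians of −0.0947 and 0.290 on the left and of 0.00895 and 0.0790 on the right.

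The genes most like Fos were sought among 8319 protein-coding genes of at least 5 mean CPM, by the root mean square difference of centred log2 CPM over the 8 libraries. Dstn, an actin depolymerising factor gene, came first at 0.273, against a median of 1.34 over these genes. It stood at 1140 and 295 CPM with the Bloodlinc hairpins against 2755 CPM, at 2185 and 955 CPM with the hnRNPU hairpins against 594 CPM, and at 762 CPM with the Bloodlinc vector against 731 CPM with the empty vector. Dstn was thus high and low in the same libraries as Fos. Vgf (0.477), Tmcc2 (0.601), Rundc3a (0.630), Gclc (0.637) and Rab5a (0.655) followed. Within the members, Fos was closest to Junb (0.743), and its relative Fosb lay at 1.12.

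The smallest distances among the members were those of Junb to Zfp36 (0.592), Dusp1 (0.603) and Ier2 (0.605), and Nab2 was at least 2.06 from each other member. The mean profile of the members was closest to Fundc1, a mitophagy receptor gene, at 0.200, against a median of 0.839, followed by Gm340 (0.250), Cep192 (0.284), Zfp217 (0.300), Gng5 (0.315) and Tbx6 (0.320). Junb followed that mean most closely of the members (0.374). These likenesses describe 8 libraries that differ in depth and makeup.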

How the data were processed

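Per the labels, total RNA was freed of ribosomal RNA, and dUTP-marked strand-specific libraries were sequenced on an Illumina instrument. TopHat2 2.0.11, HTSeq and the mm9 build are named in the submitters' processing notes; the HTSeq version, annotation release and strand setting are not given in the sources used here. The authors deposited raw counts for 37620 Ensembl IDs in each library. Each table ends in 5 summary entries, which gave the share outside genes and stayed out of library sizes and tests. GENCODE M21 on GRCm38 gave symbols for 87.4% of the IDs, exon lengths, overlaps and 3′ untranslated regions.

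A joint model in edgeR 4.0.16 (under R 4.3.3) covered the 8 libraries in 6 groups, with TMM scaling, filterByExpr (minimum count 10) and quasi-likelihood tests, Benjamini-Hochberg adjusted over 15355 genes at 0.05. The hairpin pairs gave 2 residual degrees of freedom, each single control was assumed to vary like them, and with 397 prior degrees of freedom each gene's spread was drawn to the trend over genes, so a gene whose hairpins lie far apart can pass. Single libraries were compared by log2 differences of CPM (prior count 2), a 2-fold mark and 95% exact conditional binomial intervals of the count ratio. The fit was also run on simulated counts with a common dispersion for all genes and libraries. Such counts cannot test whether the single controls vary like the hairpins. Alternatives were DESeq2 1.42.0, its size factors in edgeR, other filters, the 20 most abundant genes removed, other controls, other prior counts, a block, smaller fits and each hairpin library left out; leaving out both hnRNPU hairpin libraries or both vector libraries was chosen after seeing the data.

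The members and lists were chosen with earlier results of these data known. Named genes were all members and, per list and knockdown, up to 4 that passed with the largest log2 fold change, or up to 2 of at least 5 mean CPM where none passed, and the 6 protein-coding genes most like Fos and most like the members' mean. Motifs were searched in RefSeq promoters (GRCm38.p6).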

Additional observations from a re-analysis of the deposited data

Results flagged for a closer look

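The effects of the knockdowns on Fos differed by −3.92 on the log2 scale (Bloodlinc minus hnRNPU, edgeR adjusted p = 0.0274), the difference that passed a test of its own. For 5 further members every Bloodlinc hairpin library lay below its control and every hnRNPU hairpin library above its own, as for Fos, thus in 6 of 10 members against 6.83% of all genes tested. Some of these gaps are close to 0 on the log2 scale. The hnRNPU hairpin 2 library lay 0.014 above its control for Junb and 0.079 for Ier2, and the Bloodlinc hairpin 1 library differed by −0.040 for Zfp36. The sides also depend on the control libraries. The Bloodlinc control stood above the hnRNPU control for Fos, Fosb, Junb, Ier2 and Zfp36, and below it for Egr1. Against the other control hairpin library, Fos, Fosb, Junb and Ier2 changed sign in either knockdown. Zfp36 did so in the Bloodlinc knockdown alone, and Egr1 in neither. The difference of effects was −3.62 for Fosb (adjusted p = 0.307), −1.67 for Junb (adjusted p = 1), −3.19 for Egr1 (adjusted p = 0.234), −1.002 for Ier2 (adjusted p = 1) and −2.64 for Zfp36 (adjusted p = 0.210), and edgeR called none of these 5. Groups of 4 or more samples, in which a single library could be marked as far from the rest, do not occur here.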

How the results depend on the processing

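The call of Fos in the Bloodlinc knockdown, of Zfp36 in the hnRNPU knockdown and of Fos in their difference (1 member each) became 0 members in each comparison with DESeq2, without a filter, with a filter of 5 CPM, with the hairpin number as a replicate block, and without both vector libraries; the cause was not tested. Hairpin numbers name different hairpins and pair nothing, so the block says little. Removal of the 20 most abundant genes gave 0 for hnRNPU alone, the 3 pooled controls 0 in either knockdown, and 0 was also found for Bloodlinc in its 3 libraries or without both hnRNPU hairpin libraries. Leaving out 1 hairpin library gave 0 to 2 members for Bloodlinc, 0 to 0 for hnRNPU and 0 to 2 for the difference. Against the other control hairpin library 2 members were called for Bloodlinc (Fosb higher, Jun lower) and 3 for hnRNPU (Egr1 higher, Fosb and Atf3 lower). DESeq2's size factors kept all 3 calls and every member's direction. Over all genes, 19, 135 and 50 were called (Bloodlinc, hnRNPU, difference), 5, 100 and 22 with DESeq2, 0, 8 and 5 with the 5 CPM filter, 0, 61 and 16 with the block, 0, 16 and 7 without the vector libraries, 0 and 7 against pooled controls, and 1043 and 2340 against the other control. Leaving out 1 hairpin library gave 0 to 63, 7 to 121 and 6 to 37. In the fits with 0 calls for Bloodlinc, between 278 and 1565 genes had an unadjusted p under 0.05, and DESeq2 gave 401.

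Signs turned mainly with the control. In the Bloodlinc knockdown against the other control, log2 fold changes were 0.16 for Fos, 2.89 for Fosb, 0.22 for Junb, 0.0128 for Ier2, 1.47 for Atf3, 0.74 for Zfp36 and −1.57 for Nab2, and against pooled controls 0.42 for Atf3, 0.13 for Zfp36 and −5.51 for Nab2. Nab2, on 4 counts, was −0.32 with the block and ran from −3.51 to 1.28 without hairpin 1 or 2. In the hnRNPU knockdown against the other control they were −1.41 for Fos, −3.37 for Fosb, −0.60 for Junb and −0.10 for Ier2, and against pooled controls −0.28 for Fos, −1.88 for Fosb and −1.99 for Nab2. Atf3 there was 0.0370 with the 5 CPM filter, −0.41 to 0.0490 with 1 hnRNPU hairpin left out and 0.000524 in the fit of 3 libraries, and Jun was −0.0782 to 0.999 with 1 hnRNPU hairpin left out. The members' medians in single-library comparisons moved by under 0.1 with prior count, filter or scaling, but Nab2 between the control hairpins went under the 2-fold mark (0.62 with prior count 5). Depth limits Fos, Fosb, Ier2, Atf3 and Nab2 with the hnRNPU hairpins, where counts were at most 30.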
